A study of Arabidopsis thaliana with 12 samples.

Results

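A set of 4 nuclear genes whose products belong to families that act on organelle RNA was followed in roots of the Arabidopsis thaliana kn09 mutant and of the wild type (WT). OTP70 (AT4G25270), AT4G14050 and AT2G30100 are of the pentatricopeptide repeat (PPR) type, and AT1G62150 is of the mTERF type. They were found by locus among the features that the platform annotation assigns to 1 gene, and these 4 genes are 4 of 692 such features, in a table of 3439 features. Each gene had 1 feature, and none was listed at 0 in any sample. The genes were chosen by their family and selected on known values, namely their level, spread and direction in kn09 and WT, so the intensities and differences below are a description of these samples and carry no test of their own.

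The kn09 roots (6 samples) came from a mutant that the labels call hypersensitive to proline and unable to break proline down in mitochondria, and the WT roots (6 samples) from plants without that mutation. Both genotypes were of the ecotype Wassilevskija, and before RNA was taken the roots of both spent 48 h on MS medium that held glucose at 100 mM. Total RNA was measured on an expression array. Samples carry the numbers 1 to 6 in each genotype. Whether a number stands for a culture, an RNA preparation or a repeat reading is not said, so the errors and p-values given here cover only the spread among samples, and that spread may be technical.

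PPR proteins are helical-repeat proteins, numerous in land plants, that bind single-stranded RNA in plastids and mitochondria in a sequence-specific way and take part in editing, splicing, cleavage and stabilisation of organelle transcripts. OTP70, organelle transcript processing 70, is known from Arabidopsis for the splicing of a plastid intron in rpoC1, which encodes a subunit of the plastid RNA polymerase. mTERF proteins, named after a transcription termination factor of animal mitochondria, are built of another helical repeat and act in plants on organelle transcription, splicing and ribosome assembly. In roots these proteins serve mitochondria and non-green plastids.

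An intensity here is the linear value deposited for a feature, in a table where the highest value of every sample is 100. The sample medians lay between 0.102 and 0.121 in kn09 and between 0.139 and 0.227 in WT, and 398 to 522 features stood at 0 in kn09 samples, against 153 to 235 in WT samples. A lower intensity in kn09 is therefore common in this table. For this reason each gene is also given as a log2 intensity after quantile normalization, which makes the distribution of all samples equal, and as its percentile rank among the 3439 features of its own sample. On the log2 scale the median difference between kn09 and WT over all features was -0.06 after normalization and -0.85 without it. Samples 1 and 2, 3 and 4, and 5 and 6 of a genotype are called consecutive pairs here. Across features, the mean r within such pairs was 0.844 in kn09 and 0.91 in WT. Between all other samples of the same genotype it was 0.818 and 0.845. Of the 10 root markers and the 10 green tissue markers looked for, 0 lay on a feature with 1 gene, and neither did any of the 3 proline breakdown genes, so these lists gave no named check of tissue or genotype. There were 2 features with a green tissue marker among several genes, with log2 differences of -0.56 and -0.27, and in limma 0 of them were called and 0 had an unadjusted p under 0.05. In whole roots, fewer cells that use a gene and less RNA per cell cannot be told apart.

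**Figure D1:**
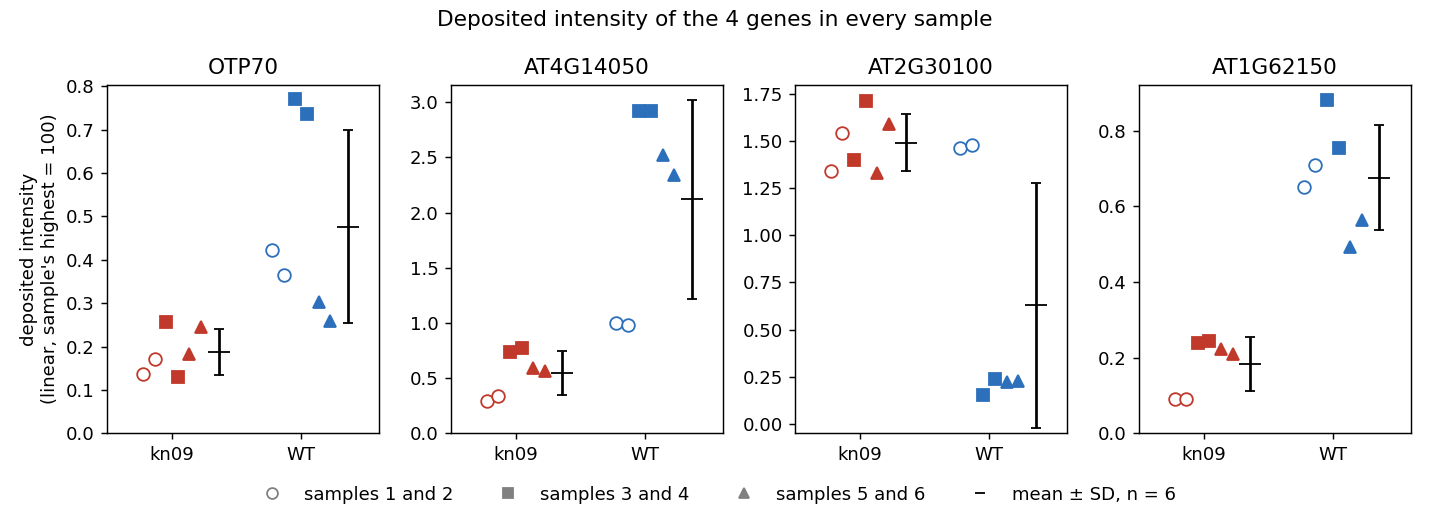
Deposited intensity (linear, highest value of each sample = 100) of the 4 genes in 6 kn09 samples (red, left) and 6 WT samples (blue, right), with open circles for samples 1 and 2, squares for 3 and 4, triangles for 5 and 6, and the mean ± SD (n = 6) beside each group. AT4G14050 and AT1G62150 are lower in every kn09 sample than in any WT sample, OTP70 is so by a narrow margin, and the open circles of AT2G30100 in WT stand at the kn09 level.

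OTP70 was lower in kn09, and WT samples 3 and 4 stood well above all others. Its intensity was 0.137, 0.171, 0.257, 0.13, 0.182 and 0.245 in kn09 samples 1 to 6. In WT samples 1 to 6 it was 0.422, 0.365, 0.771, 0.736, 0.303 and 0.259. The deposited values of the genotypes did not overlap, but only just, since the highest kn09 sample had 0.257 and the lowest WT sample 0.259. The means were 0.187 ± 0.0535 in kn09 and 0.476 ± 0.222 in WT (SD, n = 6 each), a ratio of 0.393. After normalization the log2 level was -2.08 ± 0.36 in kn09 and -1.43 ± 0.52 in WT (SD, n = 6 each), and the log2 difference was -0.65 ± 0.27 (SE). On this scale the genotypes overlapped, with kn09 samples 3 and 6 at -1.74 and -1.66, above WT samples 2 and 6 at -1.83 and -1.94. The percentile rank of OTP70 overlapped as well, at 52.5 to 69.7 in kn09 and 65.1 to 81.4 in WT.

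The difference in OTP70 lay mostly in the samples numbered 3 and 4. There the log2 difference was -1.39, against -0.54 in samples 1 and 2 and -0.01 in samples 5 and 6. WT samples 1 and 2 averaged 0.393, within the range of WT samples 3 to 6, whose mean was 0.517 ± 0.274 (SD, n = 4). Without WT samples 3 and 4 the log2 difference over the remaining samples was -0.33 ± 0.23 (SE).

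AT4G14050 was lower in all 6 kn09 samples than in any WT sample as deposited, after quantile normalization and by percentile rank. Its intensity was 0.288, 0.34, 0.734, 0.777, 0.587 and 0.566 in kn09 samples 1 to 6. In WT samples 1 to 6 it was 1, 0.983, 2.92, 2.92, 2.52 and 2.34. Samples 1 and 2 were the lowest of their genotype in both kn09 and WT. The means were 0.549 ± 0.2 in kn09 and 2.12 ± 0.9 in WT (SD, n = 6 each), so that WT stood 3.85-fold above kn09. After normalization the log2 levels were -0.72 ± 0.45 in kn09 and 0.84 ± 0.75 in WT (SD, n = 6 each), with a log2 difference of -1.56 ± 0.35 (SE). With samples scaled to a common median instead, the genotypes overlapped, because kn09 samples 3 to 6 had log2 levels of -0.28 to -0.01 and WT samples 1 and 2 had -0.48 and -0.59.

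Setting WT samples 1 and 2 apart changed the size but not the direction for AT4G14050 as deposited and after quantile normalization. With median scaling the direction against WT samples 1 and 2 was mixed, since kn09 samples 3 to 6 lay above both and kn09 samples 1 and 2 below both. As deposited, WT samples 1 and 2 averaged 0.991, and WT samples 3 to 6 averaged 2.68 ± 0.294 (SD, n = 4). Both were under 0.5 of every WT sample numbered 3 to 6, a pattern that 2.53% of all features had. kn09 samples 1 and 2 averaged 0.314, against 0.666 ± 0.105 (SD, n = 4) in kn09 samples 3 to 6. The ratio of deposited means, kn09 to WT, varied less than either level. It was 0.317 in samples 1 and 2, 0.258 in samples 3 and 4 and 0.237 in samples 5 and 6. After quantile normalization the log2 differences were -1.15, -1.76 and -1.77 in the same order. With median scaling the gap was wider in samples 5 and 6 (-0.21 and -0.28 in kn09, 1.46 and 1.31 in WT). In samples 1 and 2 the median-scaled log2 levels were -1.26 and -0.98 in kn09 and -0.48 and -0.59 in WT. The percentile rank was 73.9 to 85.7 in kn09 and 86.6 to 94.6 in WT, so the separation was narrowest between kn09 sample 4 and WT sample 2.

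AT2G30100 was the gene that stood higher in kn09, and its WT samples fell into separate levels. Its intensity was 1.34, 1.54, 1.4, 1.71, 1.33 and 1.59 in kn09 samples 1 to 6. In WT samples 1 to 6 it was 1.46, 1.48, 0.155, 0.235, 0.222 and 0.229. WT samples 1 and 2 thus lay inside the kn09 range, and WT samples 3 to 6 lay far below it. With median scaling WT samples 1 and 2 lay below the kn09 range too, the highest WT log2 level being 0.06 and the lowest kn09 level 0.81. The kn09 mean was 1.49 ± 0.152 with a coefficient of variation of 10.2%, and the WT mean was 0.629 ± 0.649 with one of 103% (SD, n = 6 each). This WT mean describes no sample: WT samples 1 and 2 averaged 1.47, and WT samples 3 to 6 averaged 0.21 ± 0.0374 (SD, n = 4). The lower of WT samples 1 and 2 was 6.19 times the highest of WT samples 3 to 6. Over all features, 79 of 3439 (2.3%) had both WT samples 1 and 2 more than 3 times above every other WT sample.

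The log2 difference of AT2G30100 after normalization was 2.25 ± 0.63 (SE) over all samples, and its size depended on which WT samples were used. It was 0.30 between samples 1 and 2 of the genotypes, 3.65 between samples 3 and 4 and 2.80 between samples 5 and 6. Without WT samples 1 and 2 it was 3.37 ± 0.27 (SE). The percentile rank was 90.4 to 92.2 in kn09. In WT it was 90.6 and 90.2 in samples 1 and 2, and 36.4, 52, 62 and 61.7 in samples 3 to 6. The labels give no treatment, time or tissue by which WT samples 1 and 2 differ from the other WT samples, and the part of their handling in this result was not tested.

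AT1G62150, the mTERF gene, was lower in every kn09 sample than in any WT sample, and here WT samples 1 and 2 did not stand apart. Its intensity was 0.0915, 0.0915, 0.238, 0.245, 0.224 and 0.21 in kn09 samples 1 to 6. In WT samples 1 to 6 it was 0.651, 0.709, 0.882, 0.754, 0.492 and 0.565. The means were 0.183 ± 0.0722 in kn09 and 0.676 ± 0.139 in WT (SD, n = 6 each), so that WT stood 3.68-fold above kn09. WT samples 1 and 2 averaged 0.68 and WT samples 3 to 6 averaged 0.673 ± 0.178 (SD, n = 4). The log2 level after normalization was -2.17 ± 0.55 in kn09 and -0.79 ± 0.18 in WT (SD, n = 6 each), and the log2 difference was -1.38 ± 0.25 (SE).

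For AT1G62150 the uneven group was kn09. Both kn09 samples 1 and 2 were under 0.5 of every kn09 sample numbered 3 to 6, which held for 2.44% of all features. kn09 samples 3 to 6 averaged 0.229 ± 0.0155 (SD, n = 4). The log2 difference was -2.14 in samples 1 and 2, -1.15 in samples 3 and 4 and -0.84 in samples 5 and 6. Without kn09 samples 1 and 2 it was -1.01 ± 0.16 (SE). The percentile rank was 46.6 and 46.9 in kn09 samples 1 and 2 and 66.3 to 67.8 in kn09 samples 3 to 6, against 77.8 to 83.3 in WT.

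**Figure D2:**
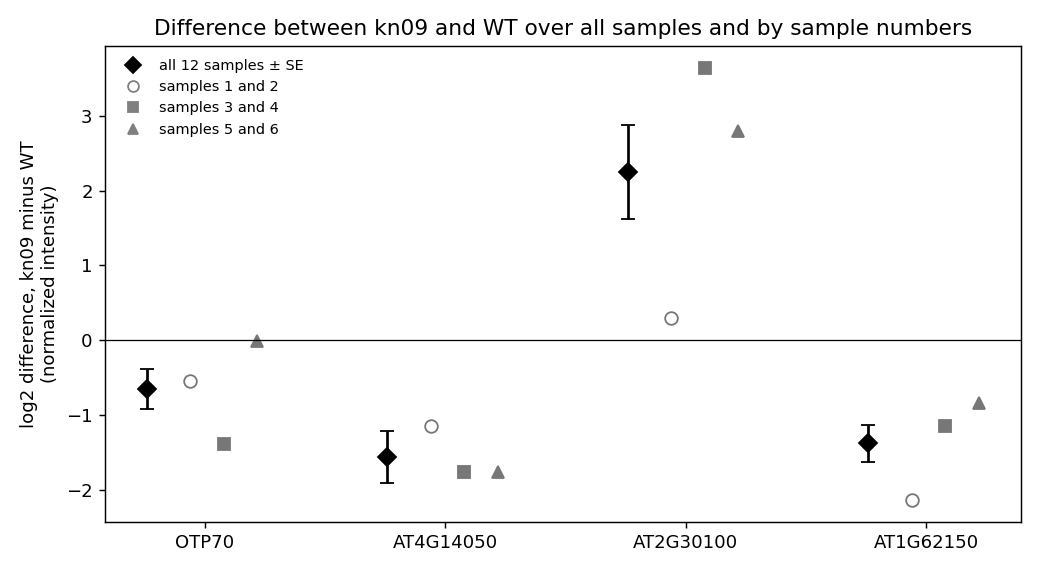
Log2 difference of normalized intensity, kn09 minus WT, for each gene: over all 12 samples with its SE (black diamonds) and between the samples of 1 pair of numbers (grey, open circles for 1 and 2, squares for 3 and 4, triangles for 5 and 6). AT4G14050 and AT1G62150 lie below 0 in all 3 pairs of numbers, OTP70 reaches -0.01 in samples 5 and 6, and AT2G30100 reaches 0.30 in samples 1 and 2 but 3.65 in samples 3 and 4.

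**Figure D3:**
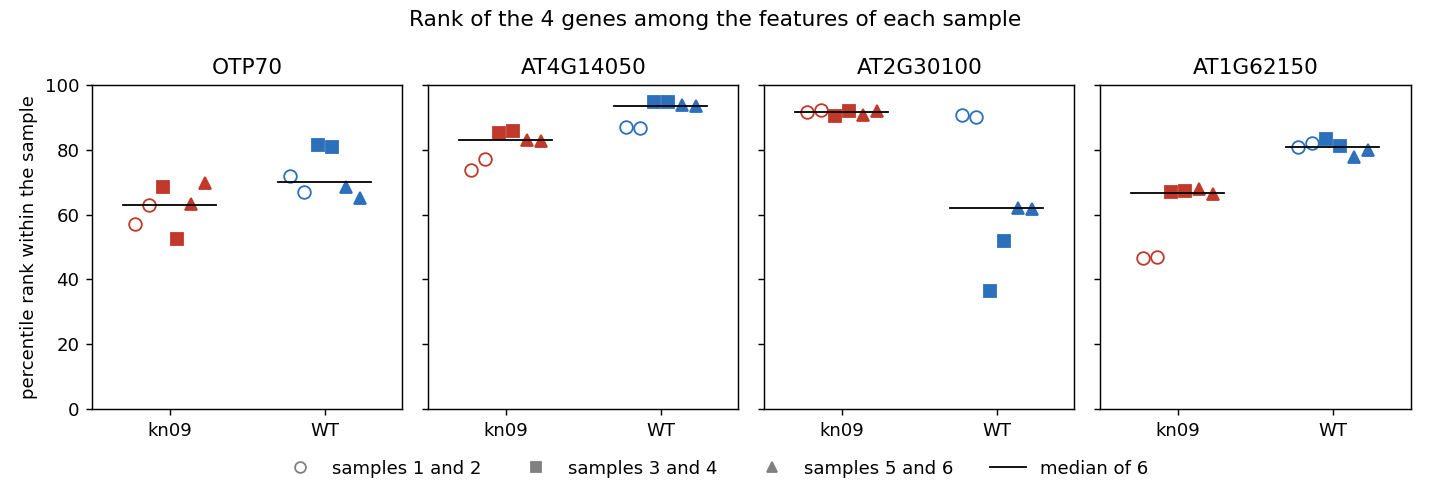
Percentile rank of each gene among the 3439 features of its own sample (0 dimmest, 100 brightest) in kn09 (red, left) and WT (blue, right), with the median of 6 as a line and the symbols marking samples 1 and 2, 3 and 4, and 5 and 6. The genotypes do not overlap for AT4G14050 (73.9 to 85.7 in kn09, 86.6 to 94.6 in WT) and AT1G62150 (46.6 to 67.8 in kn09, 77.8 to 83.3 in WT) and overlap for OTP70 and AT2G30100.

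Over the whole table, limma called 440 of 3439 features between kn09 and WT at a Benjamini-Hochberg adjusted p under 0.05, or 12.8%, with 6.48% higher and 6.31% lower in kn09, and among the features with 1 gene the share was 11.3%. Among these 4 genes 3 were called, AT2G30100 higher and AT4G14050 and AT1G62150 lower, and OTP70 was not. Since the genes were picked with this contrast known, the count says nothing about organelle RNA factors as a class. Lower deposited intensities without overlap, as in 3 of the 4 genes, occurred in 15.4% of all features, and after normalization in 3.37%, with 2 of the 4 among them. The call of AT4G14050 and that of AT1G62150 held without any 1 of the 12 samples. That of AT2G30100 was lost in 10 of 12 such fits, namely without any 1 kn09 sample and without any 1 of WT samples 3 to 6, where its log2 difference was 1.91 to 2.27. With the means of consecutive pairs as 3 values per genotype, 0 of the 4 genes were called in limma and 3 had an unadjusted p under 0.05. That fit called 16 of all 3439 features. The share of all features with an unadjusted p under 0.05 was not counted there, so the 3 genes have no background to be set against. Without WT samples 3 and 4, AT1G62150 was called and the other 3 genes were not, and 142 of all features were called. AT4G14050 was also not called without WT samples 5 and 6, kn09 samples 1 and 2, or kn09 samples 5 and 6. It was called without WT samples 1 and 2 and without kn09 samples 3 and 4. The call of AT1G62150 held without any of these pairs.

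Other organelle RNA genes were looked for by listed locus or by the symbols and synonyms of the gene table, which leaves out family members known there by locus only. Of the other PPR genes found in this way, 1 lay on a feature with 1 gene, and so did 1 other mTERF gene found likewise. In limma 0 of these 2 were called, and 0 had an unadjusted p under 0.05. Genes known only by locus were not sorted by family. Other PPR and mTERF genes, called or not, may therefore be among the features with 1 gene. OTP85, an Arabidopsis PPR protein needed for editing of a plastid ndhD site, averaged 0.0744 ± 0.0207 in kn09 and 0.1 ± 0.0534 in WT (SD, n = 6 each). Its normalized log2 difference was 0.80 ± 0.37 (SE), with a limma adjusted p of 0.168 (0.0277 to 0.539 over 27 alternatives), and on the intensities as deposited it was -0.30. AT5G55580, annotated as mTERF9 and known from Arabidopsis as a plastid protein needed for ribosome assembly there, averaged 0.503 ± 0.114 in kn09 and 0.482 ± 0.237 in WT (SD, n = 6 each). Its log2 difference was 0.66 ± 0.32 (SE), with a limma adjusted p of 0.188 (0.0105 to 0.682 over 27 alternatives).

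WT samples 1 and 2 were also the higher ones for these 2 genes. OTP85 averaged 0.163 in WT samples 1 and 2 and 0.0682 in WT samples 3 to 6, and AT5G55580 averaged 0.745 and 0.351 in the same samples. Without WT samples 1 and 2 both were called as higher in kn09, with limma adjusted p of 0.0277 for OTP85 and 0.0105 for AT5G55580. That fit left out the samples in which both genes were highest in WT, and it called 827 of all 3439 features. As deposited, the kn09 mean of OTP85 was 0.0744, close to that of WT samples 3 to 6, and that of AT5G55580 was 0.503. Whether these calls hold on deposited intensities was not tested. Another 4 features hold a PPR gene of the list among several genes, with log2 differences from -0.99 to 0.5, and 1 holds an mTERF gene in this way, with -1. In limma 0 of these 5 were called, and the mTERF feature had an unadjusted p under 0.05. The same search for splicing and CRM-domain proteins, editing accessory proteins, organelle RNA polymerases with their sigma factors, and plastid ribonucleoproteins found 0 features, which does not show that the array lacks them.

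Across the 12 samples the profiles of the 4 genes differed from one another mainly through AT2G30100. Likeness was measured as the root mean square (RMS) difference between normalized log2 profiles, each centred on its own mean, where 0 would be the same profile. AT4G14050 and AT1G62150 were the nearest of the 6 pairs at 0.54, OTP70 and AT1G62150 stood at 0.59, and OTP70 and AT4G14050 at 0.71. AT2G30100 lay 1.95 to 2.47 from the other 3 genes. The median distance to the 416 other features with 1 gene that were above 0 in all samples was 0.78 from OTP70 and 1.09 from AT4G14050. It was 0.96 from AT1G62150 and 1.69 from AT2G30100, so OTP70 and AT4G14050 were hardly nearer than the median for OTP70. The genes were selected with direction known, so the distance of AT2G30100, the gene higher in kn09, follows in part from that choice. So does the nearness of the other 3 genes, all lower in kn09, to one another.

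Among the 416 other features with 1 gene that were above 0 in all samples, AT5G33390 had the profile most like AT2G30100, with an RMS difference of 0.24 against a median of 1.69. Its intensity was 1.7, 1.67, 1.64, 1.5, 1.76 and 1.77 in kn09 samples 1 to 6 and 1.69, 1.41, 0.179, 0.167, 0.239 and 0.247 in WT samples 1 to 6. As deposited, AT5G33390 thus had the same division of WT as AT2G30100, with WT samples 1 and 2 at or near the kn09 level. After quantile normalization its log2 levels were 0.72 and 0.39 in WT samples 1 and 2 and 0.59 to 1.02 in kn09. AT4G24930 and AT2G23160 came next, at 0.56 and 0.61. AT4G24930 averaged 0.406 in kn09, 0.533 in WT samples 1 and 2 and 0.133 in WT samples 3 to 6.

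AT1G03810 was nearest to AT4G14050 at 0.29, against a median of 1.09, with 1.43 ± 0.366 in kn09 and 4.36 ± 2.21 in WT (SD, n = 6 each). Its WT samples 1 and 2 averaged 1.66 and its WT samples 3 to 6 averaged 5.71, the same order as for AT4G14050. AT1G11800 and AT1G51350 followed at 0.38 and 0.39. CML30, a calmodulin-like gene, was nearest to AT1G62150 at 0.30, against a median of 0.96, with 0.442 ± 0.118 in kn09 and 1.24 ± 0.286 in WT (SD, n = 6 each). AT1G51350 and AT2G29870 followed at 0.31 and 0.38. AT1G13990, AT2G35450 and AT4G21170 were nearest to OTP70, at 0.28, 0.29 and 0.29 against a median of 0.78. The families of neighbours known only by locus were not looked up, so some may be PPR or mTERF genes themselves. AT1G13990 had 5.27 and 5.39 in WT samples 3 and 4, above 2.7 to 3.76 in the other WT samples, as OTP70 had its highest values there.

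**Figure D4:**
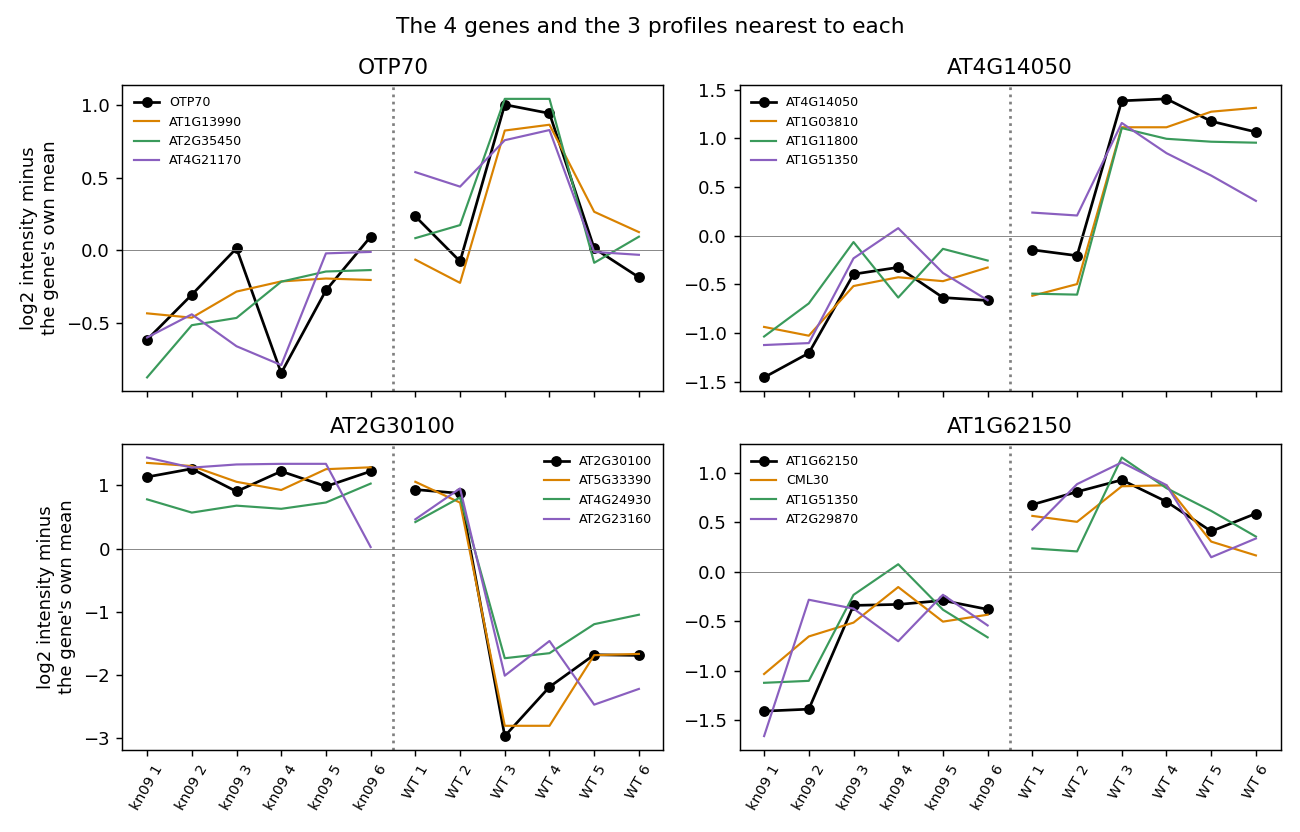
Normalized log2 intensity minus each gene's own mean in kn09 samples 1 to 6 (left of the dotted line) and WT samples 1 to 6 (right), for each of the 4 genes (black) and the 3 features with 1 gene whose profiles are nearest to it (coloured). Lines only join the samples of a genotype. AT2G30100 and AT5G33390, 0.24 apart by RMS difference, are both high in WT samples 1 and 2 and low in WT samples 3 to 6.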

How the data were processed

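Per the labels, total RNA from 6 kn09 and 6 WT root samples was measured on an array. The deposited table gives 1 linear intensity per feature and sample. From the values, the highest intensity of each sample is 100 and none is below 0. The scanner, background correction and scaling are not stated in the labels or the table. No per-sample column was left aside, and no 2 samples of a genotype held the same values. The number of arrays limits the precision.

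Intensities were quantile normalized (limma 3.58.1, R 4.3.3). Zeros, and values under the 1st percentile of positive normalized values (0.0062), were set to that floor before log2 was taken. limma (lmFit, eBayes, 2-sided) was fitted on all 3439 features with genotype as the term, and the code was tested on simulated data. Standard errors are those of this fit. Names come from the platform annotation, updated to the TAIR10.1 gene table, and were not checked against probe sequences. Levels are not compared between features, and no coordinates are printed because the array's build is not stated there either.

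The genes, lists and alternatives were chosen with earlier results of these data known. Named genes are the 4 genes, the 3 nearest profiles of each and the list genes that were called or had the 2 smallest p-values in a list. Alternatives changed the normalization, the treatment of zeros, the floor, an offset, a filter on dim features, the sample pairs and the samples used.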

Additional observations from a re-analysis of the deposited data

How the results depend on the processing

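Of the 27 alternatives, 6 leave the log2 difference of these 4 genes as it is (the blocks and pair means in a balanced design, and the settings for zeros, the floor and dim features). Under the other 21, the sign changed in 0 of 84 values, although direction was among the values on which the genes were selected. Leaving out 1 sample gave -0.74 to -0.52 for OTP70, -1.77 to -1.42 for AT4G14050, 1.91 to 2.69 for AT2G30100 and -1.44 to -1.23 for AT1G62150. On the intensities as deposited OTP70 had -1.27 and AT1G62150 -1.98, where the median of all features was -0.85. On that scale OTP70 was also called, and with median scaling AT4G14050 was not, with -1.09. Over the 15 alternatives that did not leave out a single sample, OTP70 was called in 1, AT4G14050 in 9, AT2G30100 in 7 and AT1G62150 in 14. OTP85 changed sign on the intensities as deposited, to -0.30. The count of called list genes was 0 without any 1 sample, 1 with median scaling and 2 without WT samples 1 and 2. The 440 calls over all features became 1257 on the intensities as deposited (99 higher, 1158 lower), 827 without WT samples 1 and 2, and 192 (without WT sample 3) to 507 without 1 sample. With median scaling 451 features were higher and 199 lower. Leaving out other consecutive pairs, an alternative chosen after seeing the data, gave 142 and 201 (WT samples 3 and 4, 5 and 6) and 130, 206 and 186 (kn09 samples 1 and 2, 3 and 4, 5 and 6). Consecutive pairs as a random block gave 82, and their means gave 16. The replicate number as a block gave 211 calls and left each gene's difference as it was (-0.65, -1.56, 2.25 and -1.38), with AT2G30100 no longer called. Deviations of samples with the same number correlated at 0.07 to 0.1 between kn09 and WT, and each sample correlated best with its own number, a hint from the data and not from the design. Where a value changed, the cause was not tested. The table gives no background, so how far the dimmest values, such as 0.0407 for OTP85 in WT sample 5, stood above it is not known.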
